A study of Mus musculus with 9 samples.

Results

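Oxidative phosphorylation is the last stage of respiration, in which the inner mitochondrial membrane couples the oxidation of NADH and succinate to the making of ATP. Complexes I and II pass electrons to ubiquinone, complex III hands them to cytochrome c, complex IV gives them to oxygen, and complex V, the ATP synthase, uses the resulting proton gradient. Nearly all subunits are encoded in the nucleus and imported, while mitochondrial DNA encodes a small core set. The genes described here are those with a symbol that starts with Nduf, Uqcr, Cox4, Cox5, Cox6, Cox7, Cox8 or Atp5, or that equals Sdha, Sdhb, Sdhc, Sdhd, Cycs or Cyc1, on probe sets annotated to exactly 1 gene symbol. The rule found 91 of the 19935 genes tested. By role they were 6 core and 28 supernumerary subunits of complex I and 7 complex I assembly factors, then 4 subunits of complex II, 9 of complex III, cytochrome c, 10 of complex IV, 9 isoforms and relatives of complex IV subunits, and 5 F1 and 12 Fo or stalk subunits of ATP synthase. Ndufa4 was counted with complex IV, where its protein is found. The assembly factors are not subunits, and Ndufb1, Ndufb4, Ndufaf8 and Cox7c were not measured on a probe set of their own.

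RNA came from mouse NIH 3T3 fibroblasts, an established line, after stable transduction with the pLKO.1 control vector, a Net shRNA or an Sap-1 shRNA, with 3 biological replicates per group and 1 Affymetrix Mouse Gene 1.0 ST array per replicate. Net is encoded by Elk3 and Sap-1 by Elk4, and both are ternary complex factors of the ETS family, which act on DNA as partners of serum response factor. Cells of all 3 groups attached to fibronectin for 2 h, were starved of serum overnight and then received bovine serum for 1 h, at 10% by the sample protocols and 20% by the series description. Every array was therefore taken after serum, and the labels do not say how many separately transduced lines or shRNA sequences stand behind a group, so the p-values cover the spread between these samples, which may be that of 1 line. The control is named both as a vector and as a control shRNA plasmid, so whether the control cells made an shRNA is not given.

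Array medians ran from 7.47 to 7.54 on the log2 scale, arrays of 1 group correlated across probe sets at 0.998 to 0.999 and arrays of different groups at 0.988 to 0.995. Of the targeted genes, Elk3 fell by 0.42 with Net shRNA (SE 0.04, adjusted p = 1.1e-05) and Elk4 fell by 1.54 with Sap-1 shRNA (SE 0.04, adjusted p = 9.2e-10). The factor not targeted was lower as well, since Elk4 fell by 0.44 with Net shRNA (adjusted p = 2.3e-05) and Elk3 fell by 0.12 with Sap-1 shRNA (adjusted p = 0.023). The 9 fibroblast markers had a median control level of 12.63, and the lists for muscle, heart, fat, macrophage, epithelial, endothelial and testis cells had medians of 5.83 to 7.28. Among the fibroblast markers, P4hb rose by 0.15 with Net shRNA and by 0.21 with Sap-1 shRNA. With Net shRNA 2 fell, Pdgfrb by 0.14 and Fn1 by 0.13. With Sap-1 shRNA 3 fell, among them Col3a1 by 0.34 and Thy1 by 0.32. Of the 10 skeletal muscle markers, 1 rose with Net shRNA (Des by 0.38), and 2 rose (Des by 0.63 and Acta1 by 0.42) and 1 fell with Sap-1 shRNA. Of the 6 heart markers 1 and 2 rose, Tnnt2 by 0.19 and 0.85. Of the 6 endothelial markers, Tek rose by 1.84 with Net shRNA and fell by 0.30 with Sap-1 shRNA, where Cdh5 rose by 0.84. Of the 6 epithelial markers, Krt14 rose by 0.58 and 0.48 and Cdh1 by 0.38 with Net shRNA, and of the 6 macrophage markers Cd14 rose by 0.41 and 0.21, while Cd68 rose by 0.23 with Net and fell by 0.23 with Sap-1 shRNA. Of the 5 white fat markers, Fabp4 rose by 0.37 with Net shRNA and Pparg fell by 0.30 and 0.25, and of the 6 brown fat and 6 testis markers 0 passed against control. The part of these genes in the results below was not tested.

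Many oxidative phosphorylation genes were modestly higher in both knockdowns. With Net shRNA, 44 of the 91 genes rose against control and 0 fell, while 13.4% of all genes tested rose and 10.2% fell (adjusted p under 0.05 in limma, Benjamini-Hochberg over all genes). With Sap-1 shRNA, 47 rose and 2 fell, where 15.8% of all genes rose and 13.9% fell. Highly expressed genes passed more often in general: 83 of the 91 genes had a mean at or above the median of all probe sets, and among all genes at that level 22% rose and 16.9% fell with Net shRNA and 25.8% rose and 21.7% fell with Sap-1 shRNA. Of those 83 genes, 43 rose with Net shRNA and 46 with Sap-1 shRNA. The median change of the 91 genes was 0.16 in each knockdown on the log2 scale, against medians of -0.00 and -0.02 over all genes. In such bulk RNA, a rise in all cells and a larger rise in part of the cells cannot be told apart.

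The changes were small but seen on each array. The median deviation of the 91 genes from their control means was -0.03, 0.02 and 0.01 on the control arrays, 0.12, 0.15 and 0.15 on the Net shRNA arrays and 0.18, 0.19 and 0.16 on the Sap-1 shRNA arrays. Both knockdowns lay above control on every array, and the Sap-1 arrays lay slightly above the Net arrays. In 52 of the genes every Net shRNA array was above every control array and in 1, Cox5b, every one was below, where 18.5% and 15.8% of all genes did so. For Sap-1 shRNA these counts were 61 and 3, against 20.8% and 20.2% of all genes. Individual changes ran from -0.11 to 0.51 with Net shRNA and from -0.55 to 0.68 with Sap-1 shRNA. A change of at least 1.5-fold past the test was reached by 0 of the genes with Net shRNA (2.56% of all genes, either direction) and by 3 with Sap-1 shRNA (4.46%), namely Cox5a, Uqcrq and Uqcr11. Both comparisons use the same 3 control arrays, so their results are given side by side.

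**Figure D1:**
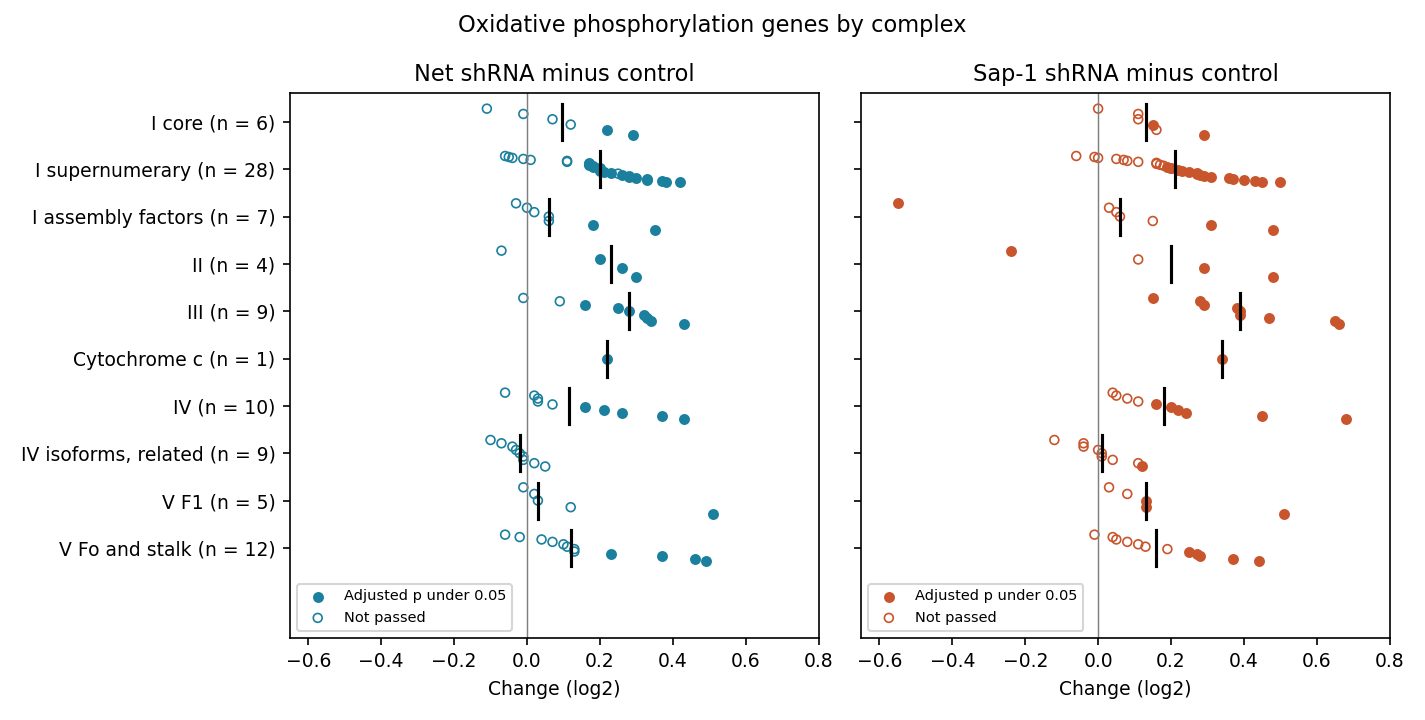
Change of each of the 91 genes against control on the log2 scale (x axis), by complex (y axis), with Net shRNA on the left and Sap-1 shRNA on the right. Filled points passed at an adjusted p under 0.05, open points did not, and black bars are medians. The complex III bar stands at 0.28 with Net shRNA and 0.39 with Sap-1 shRNA, and the bar of the complex IV isoforms at -0.02 and 0.01.

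The promoters were read for short sequences that some of these genes hold. ETS-family factors such as GABP, together with NRF1 and YY1, are textbook activators of nuclear respiratory genes, and Net and Sap-1 belong to the ETS family as well. RefSeq promoter windows (GRCm38.p6, 250 bases before to 50 after an annotated start) were found for 74 of the 91 genes and 15561 of all genes tested, and were searched on both strands for 4 exact motifs. The ETS motif CCGGAAG was in the windows of 18 genes (24.3%), against 13.6% of all genes and 20.6% of genes at or above the median level. The NRF1 motif GCGCATGCG was in 11 (14.9%), against 2.86% and 4.28%, and its 2 strands overlap where the palindrome is complete. The YY1 motif AAGATGGC was in 10 (13.5%), against 3.77% and 5.59%, and the hypoxia response motif TACGTG in 1, Uqcr11 (1.35%), against 3.8% and 4.46%. Any of the ETS, NRF1 and YY1 motifs was in 34 windows (45.9%), against 18.7% and 27.8%.

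The promoters of 6 genes are printed from 250 bases before to 30 after the start, on the strand of the gene, with matches to the 4 motifs in capitals. Sdhb (chr4:140961021-140961300, plus strand) and Ndufb7 (chr8:83566508-83566787, plus strand) rose in both knockdowns and hold the ETS motif. Uqcr11 (chr10:80406792-80407071, minus strand), 1 of the 3 largest rises with Sap-1 shRNA, holds the hypoxia, ETS and NRF1 motifs in that order. Cycs (chr6:50566540-50566819, minus strand), the cytochrome c gene, holds the NRF1 motif. Cox5a (chr9:57520982-57521261, plus strand), with the largest rise, and Ndufaf3 (chr9:108567407-108567686, minus strand), with the largest fall, hold none of the 4.
Sdhb: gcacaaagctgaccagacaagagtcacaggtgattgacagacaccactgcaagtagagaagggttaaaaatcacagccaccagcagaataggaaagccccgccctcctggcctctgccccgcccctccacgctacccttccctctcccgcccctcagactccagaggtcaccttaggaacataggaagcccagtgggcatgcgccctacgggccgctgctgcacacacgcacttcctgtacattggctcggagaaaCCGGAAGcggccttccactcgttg
Ndufb7: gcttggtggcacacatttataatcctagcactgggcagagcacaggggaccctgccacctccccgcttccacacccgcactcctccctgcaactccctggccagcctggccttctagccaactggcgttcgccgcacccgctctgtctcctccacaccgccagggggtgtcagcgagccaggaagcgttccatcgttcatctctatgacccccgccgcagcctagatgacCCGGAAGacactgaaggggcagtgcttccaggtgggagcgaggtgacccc
Uqcr11: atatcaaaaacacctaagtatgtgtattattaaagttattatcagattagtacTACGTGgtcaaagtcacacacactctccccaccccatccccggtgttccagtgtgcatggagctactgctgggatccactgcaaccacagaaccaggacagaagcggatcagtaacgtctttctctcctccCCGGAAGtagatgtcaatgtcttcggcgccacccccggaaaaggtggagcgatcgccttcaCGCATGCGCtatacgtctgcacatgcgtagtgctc
Cycs: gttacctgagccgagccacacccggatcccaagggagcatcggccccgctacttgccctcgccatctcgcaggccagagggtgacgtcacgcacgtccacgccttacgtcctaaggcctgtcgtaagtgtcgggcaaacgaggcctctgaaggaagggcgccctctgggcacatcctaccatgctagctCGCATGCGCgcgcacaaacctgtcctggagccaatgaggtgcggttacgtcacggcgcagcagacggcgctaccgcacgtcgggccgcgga
Cox5a: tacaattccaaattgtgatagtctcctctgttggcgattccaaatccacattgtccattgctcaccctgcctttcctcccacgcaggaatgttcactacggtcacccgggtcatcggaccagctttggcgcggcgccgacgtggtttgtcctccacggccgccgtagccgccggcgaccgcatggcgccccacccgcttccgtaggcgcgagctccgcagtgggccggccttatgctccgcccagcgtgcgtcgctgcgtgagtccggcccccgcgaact
Ndufaf3: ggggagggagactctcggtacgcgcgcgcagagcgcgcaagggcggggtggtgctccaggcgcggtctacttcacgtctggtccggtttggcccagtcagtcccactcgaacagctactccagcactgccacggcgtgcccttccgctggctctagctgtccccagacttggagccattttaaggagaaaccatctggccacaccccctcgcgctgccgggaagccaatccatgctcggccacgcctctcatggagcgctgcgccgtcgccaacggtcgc
The ETS match lies 6 bases after the start in Sdhb, 20 bases before it in Ndufb7 and 66 bases before it in Uqcr11. With Net shRNA, 11 of the 18 genes with the ETS motif rose and 26 of the 56 without it, and with Sap-1 shRNA the counts were 11 of 18 and 27 of 56. For the NRF1 motif they were 7 of 11 with it and 30 of 63 without it in Net shRNA cells, and 6 of 11 and 32 of 63 in Sap-1 shRNA cells. For the YY1 motif they were 2 of 10 with it and 35 of 64 without it in Net shRNA cells, and 4 of 10 and 34 of 64 in Sap-1 shRNA cells. A match says only that these letters stand in the window, and the difference between genes with and without a motif was not tested.

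In complex I, the NADH dehydrogenase, 21 of the 34 subunit genes rose with Net shRNA and 18 with Sap-1 shRNA, with 0 falls. Of the 28 supernumerary genes, whose proteins surround the catalytic core, 19 rose and 0 fell with Net shRNA (median 0.20), and 16 rose and 0 fell with Sap-1 shRNA (median 0.21). Ndufb7, a membrane-arm subunit, stood at 9.15, 9.23 and 9.15 on the control arrays, 9.55, 9.67 and 9.55 on the Net shRNA arrays and 9.60, 9.63 and 9.64 on the Sap-1 shRNA arrays. The knockdowns overlapped each other and lay apart from control. Its change was 0.42 with Net shRNA (SE 0.05, adjusted p = 6.9e-05) and 0.45 with Sap-1 shRNA (SE 0.05, adjusted p = 2.1e-05), which is 1.34-fold and 1.37-fold. Ndufab1, the mitochondrial acyl carrier protein that also sits in complex I, stood at 9.89, 9.94 and 10.04 in control, 10.14, 10.16 and 10.10 with Net shRNA and 10.42, 10.41 and 10.32 with Sap-1 shRNA. The 3 groups were apart, with Sap-1 highest, and the changes were 0.18 (adjusted p = 0.02) and 0.43 (adjusted p = 4.8e-05). Ndufa9, next to the ubiquinone site, rose by 0.33 and 0.31 and Ndufa5 by 0.30 and 0.27 in Net and Sap-1 shRNA cells. Ndufa13 rose by 0.33 and 0.19, but by 0.09 in each and past no threshold once its neighbours' median was taken off, an added setting that subtracts from each array the median deviation of the 50 nearest expressed genes on the chromosome.

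The core subunits of complex I carry the flavin and the iron-sulfur clusters. With each knockdown 2 of the 6 rose and 0 fell, with medians of 0.09 (Net) and 0.13 (Sap-1), and their difference from the supernumerary genes was not tested. Ndufs3 rose in both, by 0.29 with Net shRNA (SE 0.05, adjusted p = 0.00076) and 0.15 with Sap-1 shRNA (SE 0.05, adjusted p = 0.027), the latter 0.23 with neighbours taken off. Ndufv1, the flavin-binding subunit, rose with Net shRNA by 0.22 (adjusted p = 0.0056) and differed by -0.00 with Sap-1 shRNA (adjusted p = 0.95). Ndufs1, the largest iron-sulfur subunit, stood at 10.23, 10.29 and 10.32 in control, 10.06, 10.25 and 10.20 with Net shRNA and 10.55, 10.51 and 10.65 with Sap-1 shRNA. Net and control overlapped, and every Sap-1 array was above both. It rose by 0.29 with Sap-1 shRNA (SE 0.06, adjusted p = 0.002), or by 0.17 with its neighbours' median taken off (adjusted p = 0.015).

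Among the 7 assembly factors, which build complex I but leave it, 2 rose and 0 fell with Net shRNA and 2 rose and 1 fell with Sap-1 shRNA. Ndufaf3 was the strongest fall of all 91 genes. It stood at 8.46, 8.52 and 8.58 in control, 8.57, 8.54 and 8.51 with Net shRNA and 7.99, 7.98 and 7.94 with Sap-1 shRNA. Net and control overlapped, and the Sap-1 arrays were all lower. The change was -0.55 with Sap-1 shRNA (SE 0.04, adjusted p = 2.8e-06), a level 1.46-fold lower, and 0.02 with Net shRNA (adjusted p = 0.8). With neighbours taken off the fall with Sap-1 shRNA was -0.57. Ndufaf4 rose in both, from 7.90, 8.11 and 8.14 to 8.46, 8.39 and 8.35 with Net shRNA (change 0.35, adjusted p = 0.0063) and to 8.39, 8.55 and 8.65 with Sap-1 shRNA (change 0.48, adjusted p = 0.00058). Ndufaf2 rose with Sap-1 shRNA by 0.31 (adjusted p = 0.00071), and by 0.19 with an adjusted p of 0.053 once its neighbours were taken off.

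Complex II, the succinate dehydrogenase shared with the citric acid cycle, split by subunit. Sdhb, its iron-sulfur subunit, stood at 10.34, 10.36 and 10.38 in control, 10.63, 10.70 and 10.66 with Net shRNA and 10.86, 10.83 and 10.85 with Sap-1 shRNA. The 3 groups were fully apart, in the order control, Net, Sap-1. The changes were 0.30 (SE 0.04, adjusted p = 0.00017) and 0.48 (SE 0.04, adjusted p = 2.6e-06). Sdhc, a membrane anchor that helps bind haem, stood at 11.81, 11.90 and 11.95 in control, 12.12, 12.10 and 12.04 with Net shRNA and 11.67, 11.67 and 11.59 with Sap-1 shRNA. It was highest in Net and lowest in Sap-1 shRNA cells, with no overlap. It rose by 0.20 with Net shRNA (SE 0.05, adjusted p = 0.011) and fell by 0.24 with Sap-1 shRNA (SE 0.05, adjusted p = 0.0025). The genes around Sdhc moved as well, by a median of -0.30 with Sap-1 shRNA, and with that taken off the change of Sdhc was 0.06 (adjusted p = 0.31). Sdhd, the other anchor, rose by 0.26 (adjusted p = 0.0054) and 0.29 (adjusted p = 0.0018). The flavoprotein gene Sdha did not pass the test in either comparison, with changes of -0.07 and 0.11.

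Complex III, the cytochrome bc1 complex, had a larger median change than any of the other groups above, at 0.28 with Net shRNA and 0.39 with Sap-1 shRNA. With Net shRNA 7 of its 9 genes rose and with Sap-1 shRNA all 9 did, with 0 falls in either. With neighbours taken off, Uqcr10 with Net shRNA went from 0.33 to 0.18 (adjusted p = 0.074) and Uqcrb with Sap-1 shRNA from 0.15 to 0.06 (adjusted p = 0.41), so neither then passed. Uqcrq, a small subunit next to cytochrome b, stood at 10.48, 10.56 and 10.56 in control, 10.84, 10.91 and 10.87 with Net shRNA and 11.24, 11.17 and 11.16 with Sap-1 shRNA. The groups did not overlap. Its changes were 0.34 (SE 0.04, adjusted p = 0.00017) and 0.66 (SE 0.04, adjusted p = 6.9e-07), or 1.27-fold and 1.58-fold. Uqcr11, another small subunit, stood at 10.64, 10.75 and 10.70 in control, 10.93, 11.02 and 10.96 with Net shRNA and 11.33, 11.42 and 11.27 with Sap-1 shRNA, again without overlap. Its changes were 0.28 (SE 0.05, adjusted p = 0.002) and 0.65 (SE 0.05, adjusted p = 2.9e-06), and its other probe set changed by 0.37 and 0.76.

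Cyc1, the haem-bearing cytochrome c1 that reduces cytochrome c, stood at 11.22, 11.31 and 11.31 in control, 11.41, 11.46 and 11.46 with Net shRNA and 11.71, 11.77 and 11.78 with Sap-1 shRNA. All 3 groups were apart. The rise was 0.16 with Net shRNA (SE 0.04, adjusted p = 0.019), or 0.09 with neighbours taken off (adjusted p = 0.14), and 0.47 with Sap-1 shRNA (SE 0.04, adjusted p = 8.2e-06). Uqcrc1, a large core protein, went from 11.01, 11.21 and 11.25 to 11.66, 11.59 and 11.51 with Net shRNA and 11.60, 11.53 and 11.47 with Sap-1 shRNA. Control lay below both knockdowns, which overlapped each other, and the changes were 0.43 (adjusted p = 0.00064) and 0.38 (adjusted p = 0.0011). The other core protein gene, Uqcrc2, rose by 0.25 and 0.28. Uqcrfs1, the Rieske iron-sulfur protein, rose with Sap-1 shRNA by 0.39 (adjusted p = 0.0062) and differed by 0.09 with Net shRNA (adjusted p = 0.54).

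Cycs, the cytochrome c that shuttles electrons from complex III to complex IV, stood at 12.53, 12.58 and 12.41 in control, 12.71, 12.67 and 12.80 with Net shRNA and 12.82, 12.81 and 12.93 with Sap-1 shRNA. Both knockdowns were above control and did not overlap with it, or with each other. The changes were 0.22 (SE 0.06, adjusted p = 0.016) and 0.34 (SE 0.06, adjusted p = 0.00084). Between the knockdowns the difference of 0.12 did not pass (SE 0.06, adjusted p = 0.16). Another bright probe set, with a mean of 12.12, changed by 0.31 and 0.45. The dimmest one, with a mean of 6.50, changed by 0.47 and 0.13, so the probe sets of Cycs rose in both knockdowns but differ on which knockdown was higher. Processed copies of Cycs and of other small subunits are common in the mouse genome, and cross-hybridisation with them was not tested.

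**Figure D2:**
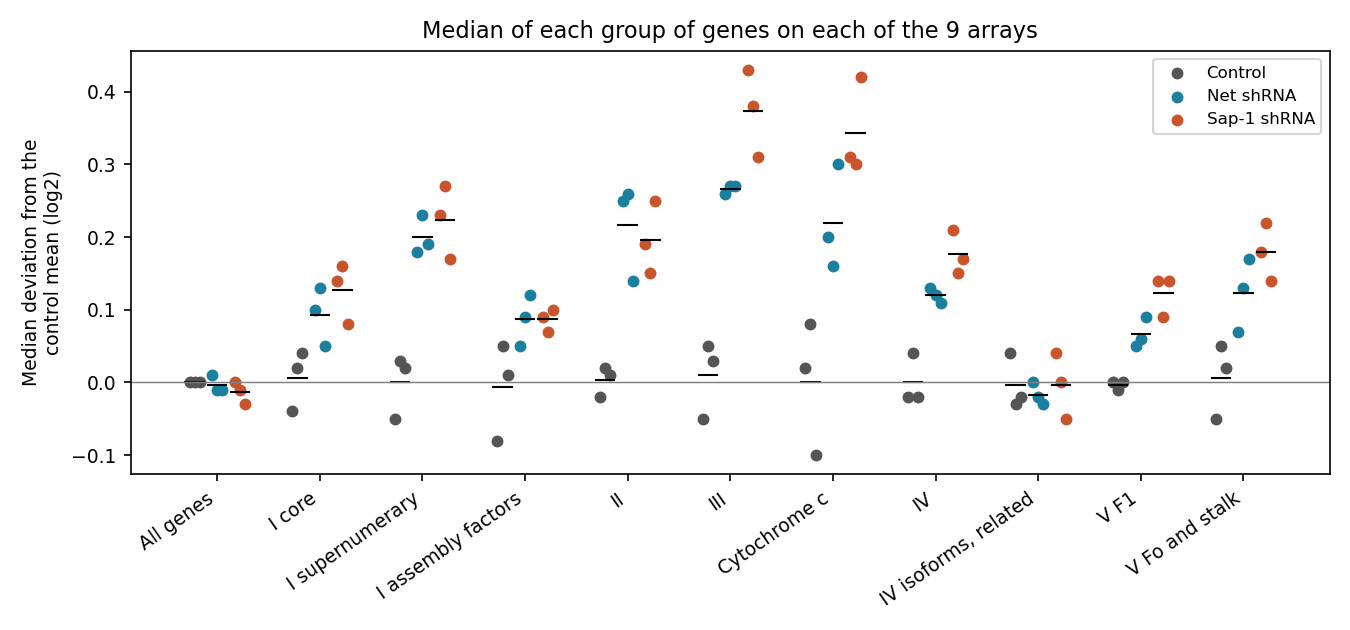
Median deviation from the control mean (log2, y axis) of each group of genes (x axis) on each of the 9 arrays, with 1 point per array and a bar for the mean of 3 arrays. Complex III stood at 0.26, 0.27 and 0.27 on the Net shRNA arrays and 0.43, 0.38 and 0.31 on the Sap-1 shRNA arrays, while the medians of all genes stayed between -0.03 and 0.01.

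Complex IV, the cytochrome c oxidase, rose in about as many of its nuclear subunits as did not pass. With Net shRNA 5 of the 10 genes rose and with Sap-1 shRNA 6 did, with 0 falls and medians of 0.11 and 0.18. Cox5a, a subunit on the matrix side, stood at 10.34, 10.41 and 10.33 in control, 10.80, 10.82 and 10.77 with Net shRNA and 11.11, 10.97 and 11.03 with Sap-1 shRNA. The 3 groups were apart and Sap-1 was highest. Its changes were 0.43 (SE 0.05, adjusted p = 4.7e-05) and 0.68 (SE 0.05, adjusted p = 8.4e-07), or 1.35-fold and 1.60-fold. Ndufa4, once assigned to complex I, went from 10.88, 11.01 and 10.93 to 11.27, 11.39 and 11.27 with Net shRNA and 11.42, 11.40 and 11.35 with Sap-1 shRNA. Both knockdowns were above control and overlapped each other, with changes of 0.37 (adjusted p = 0.00025) and 0.45 (adjusted p = 3.7e-05). Cox6b1 rose by 0.21 and 0.22. Cox4i1, the subunit through which ATP acts on the enzyme, rose by 0.26 and 0.20, and with neighbours taken off the first of these was 0.12 (adjusted p = 0.034). Cox7a2 rose with Sap-1 shRNA by 0.24 (adjusted p = 0.0014), Cox8a with Net shRNA by 0.16 (adjusted p = 0.013), and Cox6a1 passed in neither, with changes of 0.03 and 0.04, though with neighbours taken off both were 0.14 and passed (adjusted p = 0.033 and 0.025). Cox5b differed by -0.06 with Net shRNA (adjusted p = 0.34) and rose by 0.16 with Sap-1 shRNA (adjusted p = 0.011), or by 0.07 with neighbours taken off (adjusted p = 0.26).

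The isoforms and relatives of complex IV subunits, several of them used in muscle, heart, lung or testis, were counted apart. Of these 9 genes, 0 passed with Net shRNA and 1, Cox7a2l, with Sap-1 shRNA, with medians of -0.02 and 0.01. Cox7a2l, whose protein joins complexes III and IV into supercomplexes, stood at 10.06, 10.11 and 10.09 in control, 10.01, 10.10 and 10.03 with Net shRNA and 10.24, 10.16 and 10.23 with Sap-1 shRNA. Net and control overlapped, and every Sap-1 array was above both, by 0.12 against control (SE 0.04, adjusted p = 0.048). The other probe set of Cox7a2l, with a mean of 8.45, differed from control by 0.12 with Net and 0.14 with Sap-1 shRNA. In the fit on every probe set it passed in neither (adjusted p = 0.15 and 0.083), and it differed by 0.02 between the knockdowns. The striated muscle isoforms Cox6a2, Cox7a1 and Cox8b differed from control by -0.10, -0.01 and -0.03 with Net shRNA and by 0.04, 0.01 and 0.00 with Sap-1 shRNA. Cox4i2, the lung isoform, differed by -0.07 and -0.12 (adjusted p = 0.41 and 0.095). The testis isoforms Cox6b2 and Cox8c and the hypoxia-linked Ndufa4l2 also passed in neither, with changes between -0.04 and 0.02. The remaining isoform gene, Cox7b2, stood at 5.20, 5.07 and 5.19 in control, 5.20, 5.22 and 5.19 with Net shRNA and 5.25, 5.19 and 5.34 with Sap-1 shRNA, below the 25th percentile of all probe sets. The groups overlapped, with differences of 0.05 and 0.11 (adjusted p = 0.59 and 0.13), but with neighbours taken off these were 0.26 and 0.28 and passed (adjusted p = 0.0033 and 0.0012). Of these 9 genes, 5 had a mean below the median of all probe sets, and the deposited table holds no detection calls.

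In ATP synthase, 5 of the 17 genes rose with Net shRNA and 8 with Sap-1 shRNA, with 0 falls. Of the 5 F1 genes, which form the catalytic head and its shaft, 1 rose with Net shRNA and 3 with Sap-1 shRNA, with 0 falls and medians of 0.03 and 0.13. Atp5e, the epsilon subunit, went from 8.79, 8.92 and 8.91 to 9.15, 9.56 and 9.44 with Net shRNA and 9.49, 9.51 and 9.16 with Sap-1 shRNA. Control lay below both knockdowns, and the knockdown arrays spread widely. The change was 0.51 in each (SE 0.11, adjusted p = 0.0056 and 0.004). Atp5b, the catalytic beta subunit, stood at 13.42, 13.39 and 13.40 in control and 13.54, 13.51 and 13.57 with Sap-1 shRNA, a change of 0.13 (SE 0.04, adjusted p = 0.016), or 0.08 with neighbours taken off (adjusted p = 0.15). Atp5a1, the alpha subunit, differed by 0.12 with Net shRNA (adjusted p = 0.056), or 0.16 with neighbours taken off (adjusted p = 0.012), and rose by 0.13 with Sap-1 shRNA (adjusted p = 0.033).

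Of the 12 Fo and stalk genes, which form the membrane rotor and the stator, 4 rose with Net shRNA and 5 with Sap-1 shRNA, with 0 falls and medians of 0.12 and 0.16. Atp5h, stator subunit d, stood at 11.20, 11.32 and 11.25 in control, 11.83, 11.65 and 11.77 with Net shRNA and 11.52, 11.52 and 11.54 with Sap-1 shRNA. Here the Net arrays were highest and the 3 groups did not overlap. The changes were 0.49 (SE 0.05, adjusted p = 5.7e-05) and 0.27 (SE 0.05, adjusted p = 0.0023), and the other 2 probe sets of Atp5h changed by 0.51 and 0.48 with Net shRNA and 0.27 and 0.24 with Sap-1 shRNA. The rotor ring subunit c is encoded by 3 genes, which make the same mature protein. Atp5g1 went from 12.36, 12.51 and 12.50 to 13.00, 12.88 and 12.86 with Net shRNA and 12.86, 12.86 and 12.75 with Sap-1 shRNA, changes of 0.46 (adjusted p = 0.00017) and 0.37 (adjusted p = 0.00049). Atp5g3 rose by 0.23 with Net shRNA (adjusted p = 0.0022) and differed by 0.05 with Sap-1 shRNA (adjusted p = 0.46), and Atp5g2 differed by -0.02 and 0.04 (adjusted p = 0.78 and 0.54). Atp5o, the OSCP subunit that links stator and head, rose by 0.37 (adjusted p = 0.00085) and 0.44 (adjusted p = 0.00015). The inhibitor of the enzyme, Atpif1, which the rule left out, rose by 0.25 and 0.22, and the latter was 0.08 with neighbours taken off (adjusted p = 0.13).

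**Figure D3:**
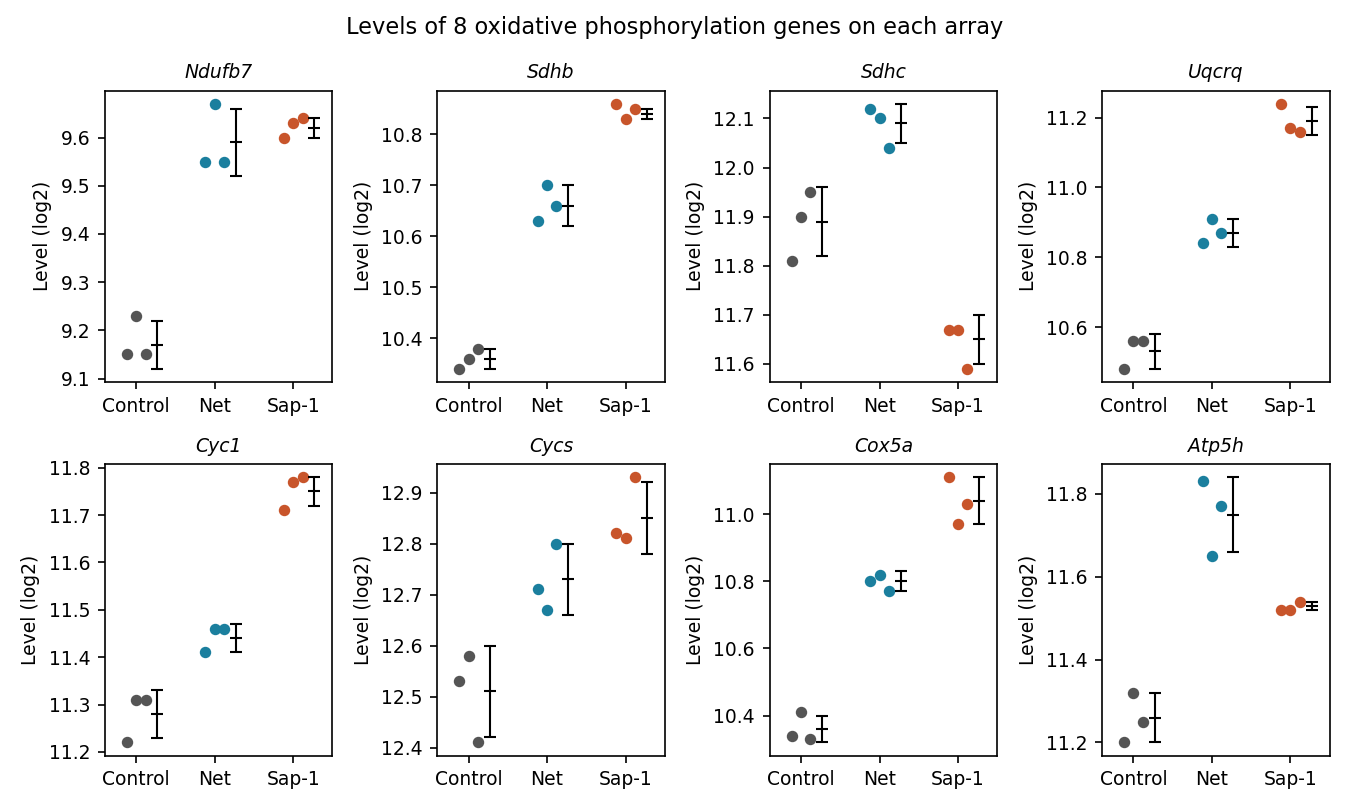
Log2 level (y axis, with its own range in each panel) of 8 of the genes on the 3 control, 3 Net shRNA and 3 Sap-1 shRNA arrays, with the mean and SD beside the points. Sdhb, Uqcrq, Cyc1, Cycs and Cox5a step up from control to Net to Sap-1, though for Cycs the step between the knockdowns did not pass. The knockdowns overlap for Ndufb7, and Sdhc and Atp5h are highest with Net shRNA.

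The knockdowns were also compared with each other. Of the 91 genes, 20 were higher and 11 lower with Sap-1 than with Net shRNA, where 13.3% of all genes were higher and 14.2% lower, and the median was 0.03 (all genes -0.02). Among all genes at or above the median level the shares were 21.9% and 22.6%. In 29 genes every Sap-1 array was above every Net array and in 16 every one was below, against 17.8% and 19.6% of all genes. Complex III held 5 of the genes that were higher with Sap-1 shRNA and 0 that were lower (median 0.16), complex IV 3 and 0, complex I supernumerary subunits 5 and 4, and Fo and stalk subunits 2 and 3. The difference was 0.37 for Uqcr11 (SE 0.05, adjusted p = 0.00021), 0.32 for Uqcrq (SE 0.04, adjusted p = 0.00019), 0.31 for Cyc1 (SE 0.04, adjusted p = 0.00019) and 0.24 for Cox5a (SE 0.05, adjusted p = 0.0018). It was 0.41 for Ndufs6, an accessory subunit near the iron-sulfur clusters (SE 0.08, adjusted p = 0.003), which stood at 9.02, 9.28 and 9.24 with Net and 9.64, 9.69 and 9.46 with Sap-1 shRNA. On the other side were Ndufaf3 at -0.57 (SE 0.04, adjusted p = 1.9e-06), Sdhc at -0.44 (SE 0.05, adjusted p = 3.6e-05), Ndufb5 at -0.23 (SE 0.05, adjusted p = 0.0037), Ndufv1 at -0.22 (SE 0.05, adjusted p = 0.0039) and Atp5h at -0.22 (SE 0.05, adjusted p = 0.0072).

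Much of this difference moved with chromosomal neighbours. With the neighbours' median taken off, 10 genes were higher and 4 lower with Sap-1 than with Net shRNA, of which 8 and 1 were among the 20 and 11. Ndufs1 went from 0.40 to 0.11, Sdhc from -0.44 to -0.08, Sdha from 0.18 to 0.05, Ndufv1 from -0.22 to -0.11, Ndufb5 from -0.23 to -0.12 and Atp5h from -0.22 to -0.14, and none of these 6 then passed. Cox5b, Ndufb9 and Ndufb3 changed sign, from 0.22 to -0.03, from 0.18 to -0.03 and from 0.16 to -0.12, and Ndufa13 went from -0.14 to 0.00. Only Ndufb3 of these then passed, as lower with Sap-1 shRNA (adjusted p = 0.036). Uqcrq (0.34), Uqcr11 (0.31), Cyc1 (0.28), Ndufs6 (0.29) and Ndufaf3 (-0.56) kept their size within 1.5 times. The counts against control hardly depended on this setting, with 44 higher and 0 lower for Net shRNA and 50 higher and 1 lower for Sap-1 shRNA, and 39 and 41 of these rises were among the 44 and 47. What moved the neighbours was not tested.

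**Figure D4:**
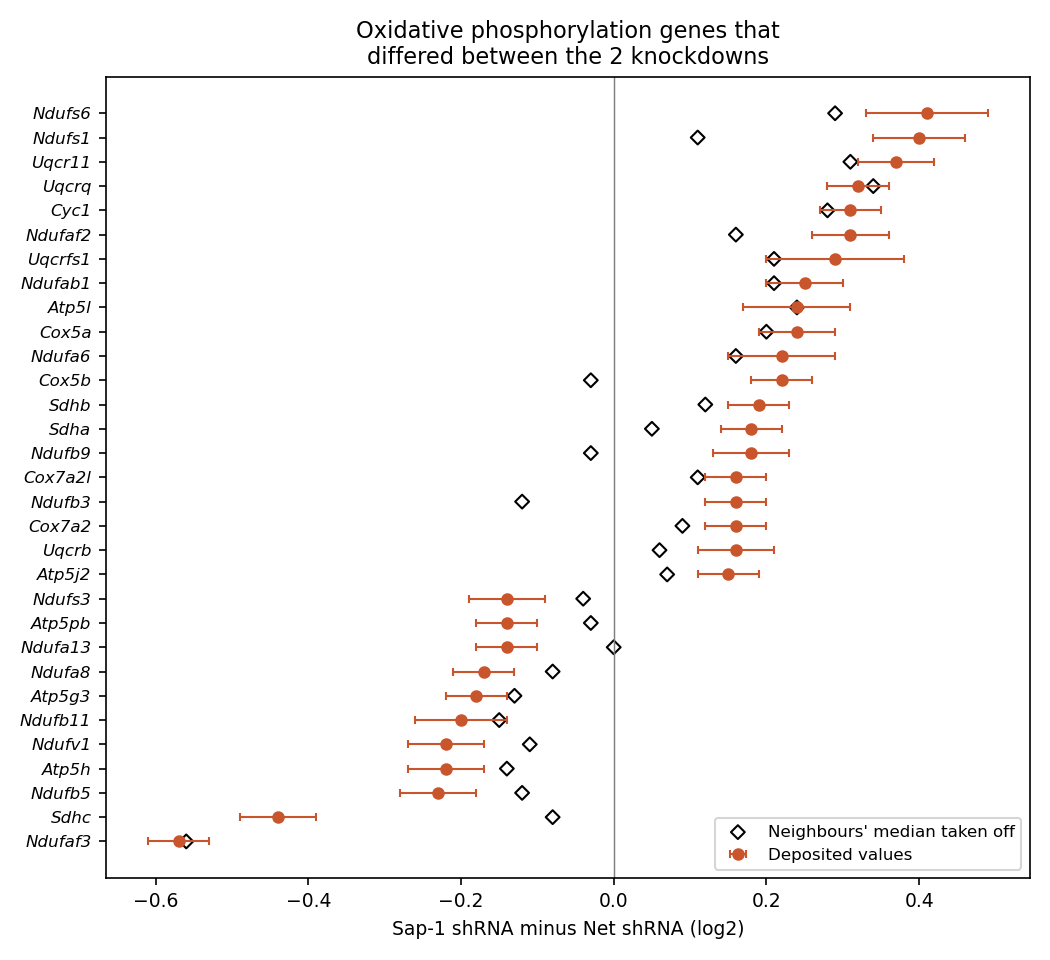
The 31 genes that differed between the knockdowns: Sap-1 minus Net shRNA on the log2 scale (x axis), as deposited (filled points with SE) and with the median of the 50 nearest expressed neighbours taken off (open diamonds). Ndufaf3, Uqcrq, Uqcr11 and Cyc1 stay near their values, while Sdhc, Ndufs1, Cox5b, Ndufb9, Ndufb3 and Ndufa13 move towards or past 0.

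The nuclear regulators of respiratory genes were read beside their known targets. Ppargc1a, which encodes the coactivator PGC-1alpha of mitochondrial gene expression, stood at 7.38, 7.58 and 7.61 in control, 8.55, 8.56 and 8.56 with Net shRNA and 10.37, 10.46 and 10.49 with Sap-1 shRNA. The groups were far apart, in that order. It rose by 1.03 with Net shRNA (SE 0.06, adjusted p = 5e-07) and by 2.92 with Sap-1 shRNA (SE 0.06, adjusted p = 1e-10), or 2.04-fold and 7.54-fold. Its relatives Ppargc1b and Pprc1 and its partners Nrf1 and Esrra passed in neither comparison, with changes between -0.05 and 0.11. Gabpa, the DNA-binding subunit of GABP, differed by -0.12 and 0.11 (adjusted p = 0.16 and 0.18), the former -0.15 with neighbours taken off (adjusted p = 0.049), and its partner Gabpb1 fell by 0.24 and 0.23 (adjusted p = 0.0097 and 0.012). The other partner gene, Gabpb2, fell by 0.35 with Sap-1 shRNA (adjusted p = 0.002) and differed by 0.02 with Net shRNA (adjusted p = 0.89). Tfam, which packs and transcribes mitochondrial DNA, rose with Sap-1 shRNA by 0.23 (adjusted p = 0.043), and the transcription factor Tfb2m and the rRNA methyltransferase Tfb1m rose with Net shRNA by 0.23 and 0.43. Over the 20 regulators measured, 5 rose and 1 fell with Net shRNA and 4 rose and 2 fell with Sap-1 shRNA, which is 25% and 20% higher, near the 22% and 25.8% of all genes at or above the median level. Whether any of them bears on the subunit genes was not tested.

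**Figure D5:**
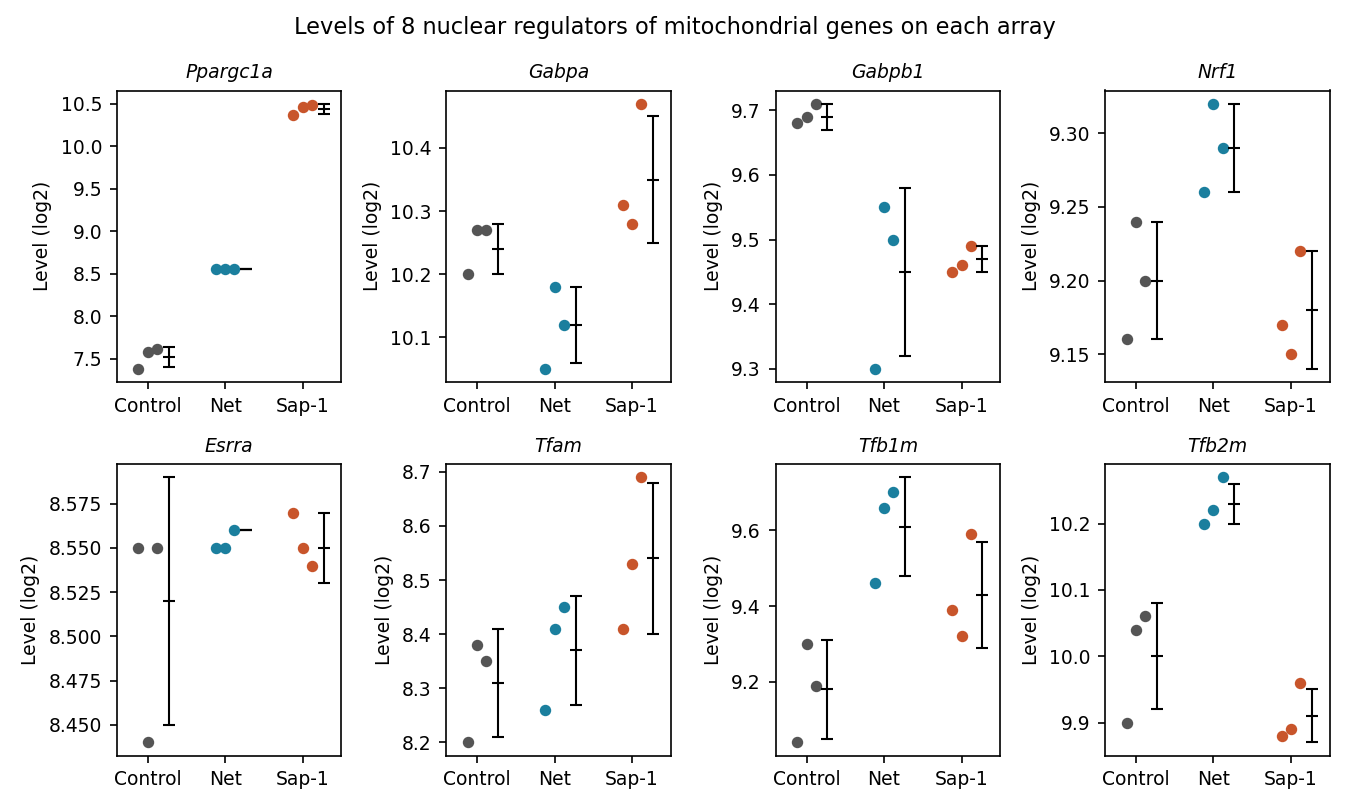
Log2 level (y axis, with its own range in each panel) of 8 nuclear regulators of mitochondrial genes on the 3 arrays of each group, with the mean and SD beside the points. Ppargc1a rises from 7.52 in control to 8.55 with Net shRNA and 10.44 with Sap-1 shRNA, and the other 7 panels span less than 1 log2 unit.

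The subunits that mitochondrial DNA encodes could be read for 2 genes. ND3 of complex I stood at 12.87, 12.92 and 12.82 in control, 12.77, 12.73 and 12.86 with Net shRNA and 12.83, 12.83 and 12.82 with Sap-1 shRNA, and COX2 of complex IV at 13.49, 13.46 and 13.36, at 13.35, 13.24 and 13.45 and at 13.38, 13.37 and 13.42. The groups overlapped for both genes. ND3 differed from control by -0.09 and -0.04 (adjusted p = 0.23 and 0.54) and COX2 by -0.09 and -0.05 (adjusted p = 0.33 and 0.58). The array does not show polyadenylation or copy number, and 11 of the 13 such genes were not analysed here.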

How the data were processed

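The values deposited by the authors are log2 levels, 1 for each probe set on each array. The submitters' processing notes name RMA and Affymetrix Expression Console without versions. RMA brings the probe intensities of all arrays to 1 distribution, which would hide a shift common to most genes, and it compresses small changes. The deposited probe set values still differed slightly between arrays, with medians from 7.47 to 7.54. Of 28815 probe sets, 21780 carried 1 symbol, 1605 several and 5430 none. Symbols were updated through Entrez IDs in the RefSeq table of GRCm38.p6 (21689 probe sets matched), and the array's own build is not given in the sources used here, so that table served for names and neighbour order. The probe set with the highest mean stood for a gene. Arrays have no sequencing depth, so precision is limited by their number.

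A single limma 3.58.1 fit (R 4.3.3, lmFit and eBayes) covered all 9 arrays with 6 residual degrees of freedom, with Benjamini-Hochberg adjustment over 19935 genes in each of 3 comparisons and a threshold of 0.05. Values are on the log2 scale, SE is that of the fit, and the script was tested on simulated data. The genes, lists and settings were chosen with earlier results of these data known. Named were all of complex II, Cyc1, Cycs and a fixed list of complex IV isoforms, then up to 4 called genes per group and comparison with the smallest adjusted p, the 5 largest changes per comparison, and up to 3 per other list. Atp5g2, Cox7b2, Uqcrb, Uqcr10, Atpif1, ND3, COX2 and the regulators Nrf1, Gabpa, Esrra, Tfam, Ppargc1b and Pprc1 fall outside this rule and were named after their values were seen. Promoters are RefSeq windows of GRCm38.p6, found for 74 genes. The planned comparison of isoform proteins was not run, since no protein table was at hand. The other settings were a replicate block, an intensity trend, 3 normalizations, 2 filters on low values, other uses of probe sets, weights for arrays, leaving out each array, a fit on only the 6 arrays compared, a threshold of 0.01 and the neighbours' median, the last added after seeing the data.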

Additional observations from a re-analysis of the deposited data

How the results depend on the processing

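The counts of oxidative phosphorylation genes that rose or fell against control kept their direction and stayed within 1.5 times of the values above under every setting run, except that 1 gene in place of 2 was lower with Sap-1 shRNA once the neighbours' median was taken off. The median change with Sap-1 shRNA was 0.19 with each array centred on its median and 0.19 when dim probe sets (mean below the median) were dropped, and the median of Sap-1 against Net shRNA was 0.06 under median centring. For Sap-1 against Net shRNA, 12 genes were higher and 6 lower at an adjusted p under 0.01, and 10 were higher and 4 lower with neighbours taken off. That last setting changed the sign of Sdhc against control with Sap-1 shRNA (0.06). Between the knockdowns it changed the sign of Cox5b (-0.03), Ndufb3 (-0.12) and Ndufb9 (-0.03) and took Ndufa13 to 0.00. Of these only Ndufb3 then passed in the other direction (adjusted p = 0.036), and the cause was not tested. Leaving out 1 array at a time gave 34 to 43 genes higher and 0 lower with Net shRNA, the lowest without control replicate 1, then 40 to 50 higher and 2 to 3 lower with Sap-1 shRNA, and 14 to 21 higher and 8 to 11 lower between the knockdowns. The medians then ran from 0.13 to 0.17, from 0.16 to 0.19 and from 0.03 to 0.06. Arrays with the same replicate number deviated together in some pairs only (correlations of -0.213 to 0.432), and pairs with different numbers ran from -0.492 to 0.318. For Net with Sap-1 shRNA the values were 0.432, -0.101 and 0.368 for replicates 1, 2 and 3. Whether the numbers pair the samples is not given by the labels and not settled by these values. With the replicate number as a block, 43 genes were higher and 0 lower with Net shRNA, 46 and 2 with Sap-1 shRNA, and 22 and 11 between the knockdowns. Of the 103 called changes of the named oxidative phosphorylation genes and of Elk3 and Elk4, 69 kept direction and call under every setting that was followed gene by gene. The 0.01 threshold and the fit on every probe set were not among these. At that threshold 31 genes were higher and 0 lower with Net shRNA, and 38 higher and 2 lower with Sap-1 shRNA. With 3 arrays a group and no detection calls, small changes of dim genes such as the muscle isoforms Cox7a1 and Cox8b may go unseen.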

Other observations

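Genes outside the rule that serve respiration also rose more often than they fell. So did all genes tested, with 13.4% up and 10.2% down with Net shRNA and 15.8% and 13.9% with Sap-1 shRNA. At or above the median level these shares were 22% and 16.9%, and 25.8% and 21.7%. Of 77 mitochondrial ribosomal protein genes, which translate the mitochondrial subunits, 41 rose and 1 fell with Net shRNA (median 0.17) and 46 rose and 1 fell with Sap-1 shRNA (median 0.19), with Mrps31 up by 0.61 with Net shRNA (0.30 with neighbours taken off) and Mrpl13 by 0.76 with Sap-1 shRNA. Of 17 citric acid cycle and pyruvate dehydrogenase genes, 8 rose with Net shRNA and 11 with Sap-1 shRNA, with 0 falls. Fumarase, Fh1, stood at 10.48, 10.53 and 10.59 in control, 10.94, 10.99 and 10.91 with Net shRNA and 10.51, 10.57 and 10.58 with Sap-1 shRNA, so that it rose with Net shRNA by 0.41 (adjusted p = 5.6e-05) and differed by 0.02 with Sap-1 shRNA (adjusted p = 0.82). With neighbours taken off the latter was 0.32 (adjusted p = 6.6e-05). Idh3a, a subunit of isocitrate dehydrogenase, rose by 0.18 and 0.63. Of 22 carrier and import genes, 11 and 14 rose, with 0 falls, among them the import channel gene Timm23 (0.34 and 0.55) and the ADP/ATP carrier Slc25a4 (0.41 and 0.24, or 0.06 and 0.14 with neighbours taken off, the first then with an adjusted p of 0.34). Of 16 quinone and electron carrier genes 9 and 7 rose, again with 0 falls, with Etfb up by 0.39 and 0.43. Of 37 assembly factors with other names, 12 rose (32.4%) and 0 fell with Net shRNA and 17 rose (45.9%) and 2 fell with Sap-1 shRNA. Cox20, which helps COX2 mature, fell by 0.34 with Sap-1 shRNA (-0.11 with neighbours taken off, adjusted p = 0.24). These lists were chosen with results known, and none was tested as a list.

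Of 14 hypoxia-linked genes, 12 rose and 0 fell with Sap-1 shRNA (median 0.44), where 15.8% of all genes rose and 13.9% fell. With Net shRNA 4 rose and 2 fell (median 0.09), or 28.6% and 14.3%. The shares of all genes were 13.4% and 10.2% there, and 22% and 16.9% at or above the median level. Pdk1, the kinase that shuts pyruvate dehydrogenase, stood at 9.75, 9.93 and 9.89 in control, 10.10, 10.21 and 10.21 with Net shRNA and 10.74, 10.61 and 10.78 with Sap-1 shRNA. The 3 groups were apart, and it rose by 0.32 and 0.86. Of the 7 kinase and phosphatase genes of this enzyme, 4 rose and 0 fell with Net shRNA and 3 rose and 1 fell with Sap-1 shRNA. The phosphatase gene Pdp1, which acts the other way, fell by 0.62 with Sap-1 shRNA (adjusted p = 2.8e-06). Lonp1, a protease of the mitochondrial matrix, rose by 0.90 with Sap-1 shRNA and fell by 0.16 with Net shRNA. The mitophagy gene Bnip3 rose by 1.47 and the prolyl hydroxylase gene Egln3 by 1.56 with Sap-1 shRNA.

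Probe sets shared by 2 genes gave values for Cox7c and Ndufb4, which have none of their own here, and for Ndufs5. These are uncertain for that reason and were not tested. The 3 probe sets shared by Cox7c and Gm12338 differed from control by -0.02, 0.00 and -0.01 with Net shRNA and by 0.08, 0.09 and 0.07 with Sap-1 shRNA. The 2 shared by Ndufb4 and Ndufb4b differed by 0.19 and 0.17 with Net shRNA and by 0.27 and 0.26 with Sap-1 shRNA, and every knockdown array was above every control array. The probe set shared by Ndufs5 and its pseudogene differed by 0.40 and 0.67, where the probe set of Ndufs5 alone differed by 0.25 (adjusted p = 0.17) and 0.50 (adjusted p = 0.0071).

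Of the 91 genes, 30 passed in no comparison.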
